A study of Mus musculus with 57 samples.

Results

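Sham surgery was compared with no surgery in endothelial cells of the mouse kidney, across 19244 genes. Of the 57 arrays in the series 6 entered the comparison, chosen by their group labels alone: 3 from endothelial cells 24 h after sham surgery and 3 from endothelial cells of mice that had no surgery. The messages measured were those attached to ribosomes. In translating ribosome affinity purification (TRAP), a GFP-tagged ribosomal protein, L10a, is made only where Cre recombinase has opened its allele, and the tagged ribosomes are pulled down from kidney extract with an antibody. The series applied this in 4 Cre lines (endothelial, nephron, interstitial and myeloid), each after ischemia-reperfusion injury (IRI), after sham surgery and without surgery. Ischemia lasted 28 min. The series also holds pull-downs from kidneys without Cre as background, and total RNA. The background mice were 8 weeks old, and the wild-type ones among them are titled C57BL/6 controls.

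Mice of the sham group were anesthetized with ketamine and xylazine, their kidneys were exposed through incisions in the flank and the renal pedicles were not clamped. The group without surgery had none of these steps, so that anesthesia, incision and handling cannot be told apart within the comparison. All mice in both groups were males aged 6 weeks on a mixed C57BL/6 and 129 background, and all carried cdh5-CRE and Rosa26-CAGGS-eGFPL10a. The Cre and the tagged ribosomal protein are therefore shared by sham mice and by their controls. The arrays are labelled as biological replicates, and the labels do not say whether kidneys were pooled or on which day they were taken. Cdh5 encodes VE-cadherin, the adhesion molecule of endothelial junctions. Since recombination by Cre is permanent, blood cells that descend from Cdh5-expressing precursors can carry the tag as well.

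Endothelial cells of an adult kidney divide rarely, and their rate of division is set by growth factors and by Notch and BMP signals. Notch signals, read out by HEY and HES repressors, go with arterial identity and with arrest of division in sprouting vessels. BMP signals act through SMAD proteins and induce the inhibitors SMAD6 and SMAD7, which damp the same pathway. Injury and inflammatory cytokines switch endothelial cells to an activated state that displays selectins and adhesion molecules to leukocytes.

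Identity and background were checked first. Of 30 endothelial identity genes 28 lay above the pull-down from wild-type kidneys after sham surgery (2 arrays), beside 30.2% of all genes measured there. All 26 markers of macrophages, monocytes and dendritic cells also lay above it, and 0 of 21 proximal tubule markers did. The lysozyme gene Lyz2, a marker of myeloid cells, read 12.77, 12.78 and 12.65 log2 units in sham arrays, against 12.55, 12.62 and 12.59 in arrays without surgery. The endothelial arrays thus held leukocyte messages in both groups. Array medians lay between 105.8 and 128.4 intensity units in TRAP arrays, and the 6 arrays correlated at 0.986 to 0.997 over all genes. Sham replicate 2 and no-surgery replicate 3 stood apart along the first component of deviations from the group means (scores 0.47 and 0.64, against -0.40 to -0.06 in the other arrays; 60% of the variation). The same arrays had the highest summed proximal tubule signal in their groups, at 79281 in sham replicate 2 and 97495 in no-surgery replicate 3. Counts without both are given beside the results they change.

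In endothelial cells 142 of 19244 genes were called after sham surgery, or 0.738% (limma, Benjamini-Hochberg adjusted p under 0.05). Of these 93 were lower (0.483% of genes) and 49 were higher (0.255%). In 137 of the 142 the 3 sham arrays lay wholly on one side of the 3 arrays without surgery. Over all genes this held for 6.83% on the lower side and 7.93% on the higher side. The 142 were called from these same arrays, so the count of 137 adds no support to the calls. Changes were mostly moderate: 12 genes fell and 6 rose at least 2-fold. At an unadjusted p under 0.05, 487 genes were lower (2.53%) and 542 higher (2.82%). The number of calls rested on the arrays: it was 91 without sham replicate 1, 55 without sham replicate 2 and 93 without no-surgery replicate 1, and 55 with both outlying arrays left out. A fit of the 6 arrays alone, with its own estimate of the spread, called 20 genes, 17 of them among the 142; of the named genes Calr3, Ccna2, Cdk14, Klrb1b, Mki67, Plk1 and Zfp599 were called there. The plot of all genes shows the cell cycle list on the side of lower values.

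**Figure D1:**
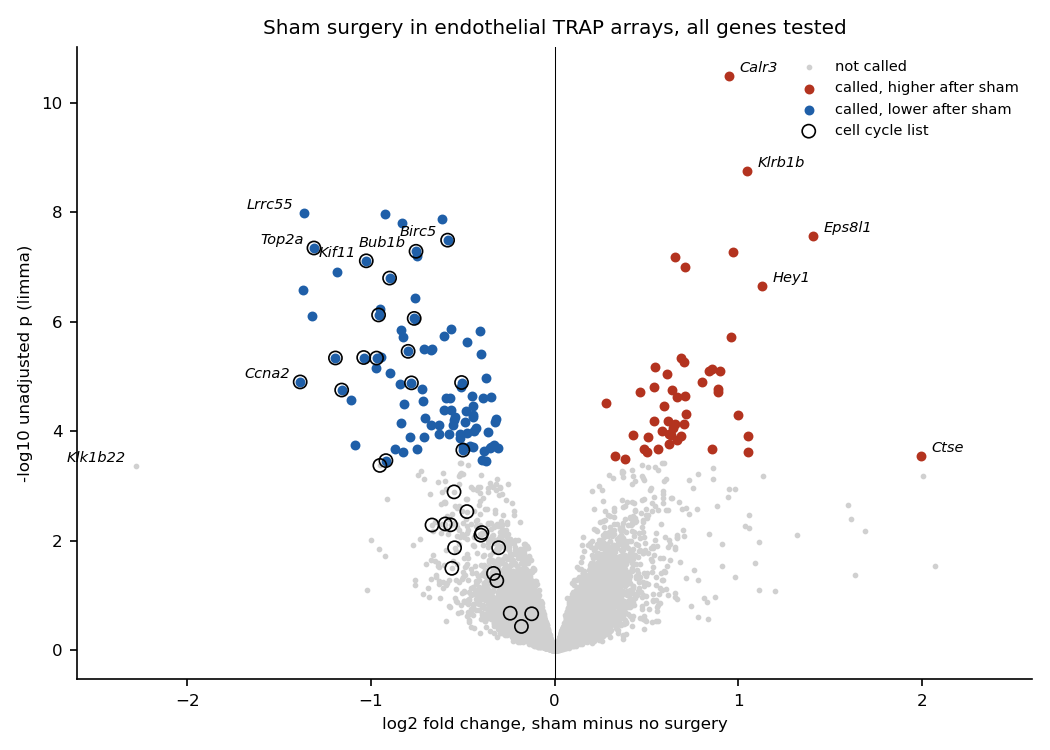
Log2 fold change of sham over no surgery (x) against -log10 of the unadjusted limma p (y) for the 19244 genes tested in endothelial TRAP arrays. Red points were called higher (49), blue points called lower (93), and rings mark the 33 genes of the cell cycle list, all of which lie left of 0.

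Genes of cell division fell together after sham surgery. Of 33 cell cycle genes tested 17 fell and 0 rose; 6 fell in the fit of the 6 arrays alone, 12 without sham replicate 2 and 11 without both outlying arrays. The log2 fold change was negative for all 33, with a median of -0.60 (from -1.39 to -0.13), while the median over all genes was -0.009. The 3 sham arrays lay below the 3 arrays without surgery for 28 of the 33, which held for 6.83% of all genes, and 29 had an unadjusted p under 0.05. The summed intensity of the list was 15611, 14771 and 18551 in sham arrays, against 23809, 23189 and 21114 in arrays without surgery. After IRI it was 17877, 19391 and 19638. The wild-type pull-downs after sham surgery gave 18512 and 19817, which is not below the endothelial sham arrays as a group. Those from kidneys with the L10a allele and no Cre gave 14211 and 14593. In myeloid arrays the sum was 18217 to 23954 after sham surgery and 20999 to 23963 without surgery. In bulk material such as this, fewer cycling cells and less of these messages per cell cannot be told apart.

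Ccna2, Top2a, Ccnb2 and Mki67 had the largest changes on the list, while the cyclin genes Ccne2, Ccne1 and Ccnd1 did not pass (log2 fold changes -0.55, -0.30 and -0.18). Ccna2, the cyclin A2 that drives DNA synthesis and entry into mitosis, read 8.05, 7.60 and 8.14 log2 units in sham arrays, against 9.47, 9.35 and 9.13 in arrays without surgery. All 3 sham arrays lay far below all 3 others. Its log2 fold change was -1.39 ± 0.27 (SE from the fit of 45 arrays, n = 3 each). That is 38.3% of the no-surgery level (adjusted p = 0.00456 by limma, and 0.0771 without sham replicate 2). Top2a, the topoisomerase that untangles chromosomes before they part, read 7.52, 7.26 and 8.03 in sham arrays, against 9.02, 8.80 and 8.91 in arrays without surgery. It fell by 1.31 ± 0.19 on the log2 scale (adjusted p = 9.42e-05), while a second, dim Top2a probe set (mean 4.41) gave -0.03. Ccnb2, cyclin B2, which takes cells into mitosis, read 8.96, 8.52 and 8.98 in sham arrays, against 10.29, 10.05 and 9.71 in arrays without surgery. The groups did not overlap, and the fall was 1.19 ± 0.22 on the log2 scale (adjusted p = 0.00213). Mki67, whose product Ki-67 marks cycling cells in tissue, read 7.77, 7.63 and 8.01 in sham arrays, against 9.15, 8.88 and 8.87 in arrays without surgery. That is 44.7% of the no-surgery level (adjusted p = 0.00557, and 0.0681 without sham replicate 2 or 0.0517 without no-surgery replicate 1).

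Promoters of these genes are shown because genes that peak in late cell cycle are known to share a pair of short elements. One is the cell cycle genes homology region (CHR), TTTGAA or TTCGAA, which recruits repressor and activator complexes in turn. The other is the CCAAT box, bound by the trimeric factor NF-Y. The 4 promoters below were picked, with the results known, from the cell cycle genes among the 12 genes with the lowest named log2 fold changes. Kif11, with 1 match of each element, is not shown, and Ccna2 had no promoter entry to search. Of the other replication genes among the 12, H2bc3 held 3 CCAAT and 1 CHR match, Pclaf 2 CCAAT and 0 CHR, and H1f1 1 CCAAT and 0 CHR. Each printed promoter runs from 250 bases before to 50 bases after the gene start, 5′ to 3′ on the strand of the gene, from RefSeq on GRCm38.p6, with capitals marking every CHR and CCAAT letter match on either strand (TTCAAA and ATTGG are the reverse complements).
Ccnb2, chr9:70421505-70421804, minus strand: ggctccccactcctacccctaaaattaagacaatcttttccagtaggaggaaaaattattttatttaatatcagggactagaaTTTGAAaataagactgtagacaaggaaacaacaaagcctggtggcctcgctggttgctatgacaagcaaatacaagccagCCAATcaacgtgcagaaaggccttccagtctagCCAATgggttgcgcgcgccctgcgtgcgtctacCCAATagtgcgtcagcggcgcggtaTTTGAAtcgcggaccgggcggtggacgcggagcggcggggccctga
Top2a, chr11:99024140-99024439, minus strand: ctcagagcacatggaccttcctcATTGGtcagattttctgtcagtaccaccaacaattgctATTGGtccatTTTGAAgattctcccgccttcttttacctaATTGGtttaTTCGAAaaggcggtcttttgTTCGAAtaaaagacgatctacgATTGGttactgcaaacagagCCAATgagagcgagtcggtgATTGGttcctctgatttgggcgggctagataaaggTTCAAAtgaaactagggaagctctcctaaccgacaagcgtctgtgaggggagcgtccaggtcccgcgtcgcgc
Plk1, chr7:122159185-122159484, plus strand: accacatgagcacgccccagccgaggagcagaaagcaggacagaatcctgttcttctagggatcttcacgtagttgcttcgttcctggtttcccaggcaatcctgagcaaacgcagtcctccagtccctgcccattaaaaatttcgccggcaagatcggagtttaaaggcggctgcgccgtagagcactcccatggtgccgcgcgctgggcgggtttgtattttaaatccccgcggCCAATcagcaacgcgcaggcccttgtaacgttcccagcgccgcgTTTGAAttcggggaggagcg
Mki67, chr7:135716330-135716629, minus strand: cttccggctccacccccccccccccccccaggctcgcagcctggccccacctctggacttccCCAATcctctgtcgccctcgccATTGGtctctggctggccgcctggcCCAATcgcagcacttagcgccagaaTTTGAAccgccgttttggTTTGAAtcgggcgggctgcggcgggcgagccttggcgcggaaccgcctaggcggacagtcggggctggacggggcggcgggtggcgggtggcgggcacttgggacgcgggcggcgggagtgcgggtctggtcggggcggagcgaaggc

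Ccnb2 held 3 CCAAT matches, at -87, -54 and -21 from the gene start, with CHR letters at -167 and 5. Top2a held 6 CCAAT and 4 CHR matches, Mki67 3 and 2, and Plk1 1 of each. Over all 15121 tested genes with a promoter entry, 16.2% held CHR letters, 38.2% held CCAAT and 6.58% held both within the same 300 bases. Among the genes that fell, 76 had an entry: 56.6% held CHR letters, 63.2% CCAAT and 43.4% both. Of the 35 genes with an entry that rose, 14.3% held CHR letters, 34.3% CCAAT and 5.71% both. These shares count letters and say nothing of what is bound there.

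Mitotic kinases and spindle proteins made up most of the other cell cycle genes that fell. Plk1, the polo-like kinase that runs mitosis, read 7.97, 7.81 and 7.84 in sham arrays, against 9.06, 8.84 and 8.85 in arrays without surgery (log2 fold change -1.04 ± 0.19, adjusted p = 0.00213). Kif11, the motor that separates spindle poles, stood at 49.1% of the no-surgery level (adjusted p = 0.000107). Both were called whichever single array was left out, but Kif11 was not in the fit of the 6 arrays alone (adjusted p = 0.064 by limma). Aurkb and Birc5, partners in the chromosomal passenger complex, had log2 fold changes of -0.90 and -0.58 (adjusted p = 0.000181 and 7.81e-05). The spindle checkpoint genes Bub1 and Bub1b had -0.76 and -0.76 (adjusted p = 0.00068 and 9.42e-05). Nusap1, Prc1 and Tpx2, which bundle or seed spindle microtubules, lay between -0.97 and -0.78. Foxm1, the transcription factor of late cell cycle genes, fell by 0.80 on the log2 scale (adjusted p = 0.00186), and Cdk1, Aurka and Cdca8 completed the 17.

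The 16 members that did not pass included the genes of DNA synthesis on the list. Rrm2, a subunit of ribonucleotide reductase, came nearest: it read 7.59, 7.13 and 7.83 in sham arrays, against 8.47, 8.51 and 8.42 in arrays without surgery (log2 fold change -0.95, adjusted p = 0.0543). The replicative helicase genes Mcm2, Mcm3, Mcm5, Mcm6 and Mcm7 lay between -0.67 and -0.31 (adjusted p from 0.294 to 0.942). The thymidine genes Tk1 and Tyms had -0.60 and -0.33. Pcna, the sliding clamp of DNA polymerase, and Ccnd1, the cyclin of early G1, had -0.13 and -0.18 (adjusted p = 0.999 for both). Some mitotic genes did not pass either, among them Cenpa of the centromere at -0.48 (adjusted p = 0.205). Whether synthesis genes moved less than mitotic genes was not tested.

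Gene families grouped by symbol, after the values were seen, add detail. Over all genes 0.483% fell. Of 37 kinesin genes 8 fell and 0 rose, from Kif11 at -1.03 to Kif15 at -0.41; Kif23 of the cytokinetic bridge had -0.79 and Kif18b -0.76. Of 8 condensin subunits 3 fell (Ncaph at -0.84, Ncapg at -0.62 and Ncapg2 at -0.36). Of 27 replication-dependent histone genes, whose messages accumulate in S phase, 9 fell and 0 rose, with a family median of -0.22. H2bc3, a core histone H2B gene, read 9.85, 9.09 and 9.97 in sham arrays, against 11.17, 10.95 and 10.90 in arrays without surgery (log2 fold change -1.37 ± 0.21, adjusted p = 0.000273). The linker histone genes H1f1 and H1f5 had -1.09 and -0.95, the first with an adjusted p of 0.0289 that was 0.471 without sham replicate 2. Histone copies are nearly identical, so that probe sets of single members may read others. Pclaf, a PCNA-binding protein of replication forks, fell by 1.32 ± 0.22 on the log2 scale (adjusted p = 0.000646), and its second probe set gave -1.34. Only 1 of 21 Cenp genes (Cenpe, -0.44) and 2 of 10 Fanconi anemia genes (Fancd2 and Fanci) were called. In all, 39 of the 93 genes that fell were on the cell cycle list or in one of these families.

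Background bears on this group unevenly. Of the 33 cell cycle genes 15 lay above the wild-type pull-down, among them Ccna2 by 1.46 and Ccnb2 by 1.36 log2 units. Others did not: Top2a, Plk1 and Kif11 were at -0.42, -0.28 and -0.19 relative to it, in the mean of both endothelial groups. H2bc3 lay 3.64 and Pclaf 2.05 log2 units above it. No wild-type pull-down without surgery was analysed here, so the part of carried-over kidney message in these changes was not tested. The wild-type mice, titled C57BL/6 controls, were 8 weeks old. The endothelial mice were 6 weeks old and of mixed C57BL/6 and 129 background. Age, strain and tag therefore cannot be told apart against this background. With the test confined to genes above that background, 12 cell cycle genes were called lower.

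**Figure D2:**
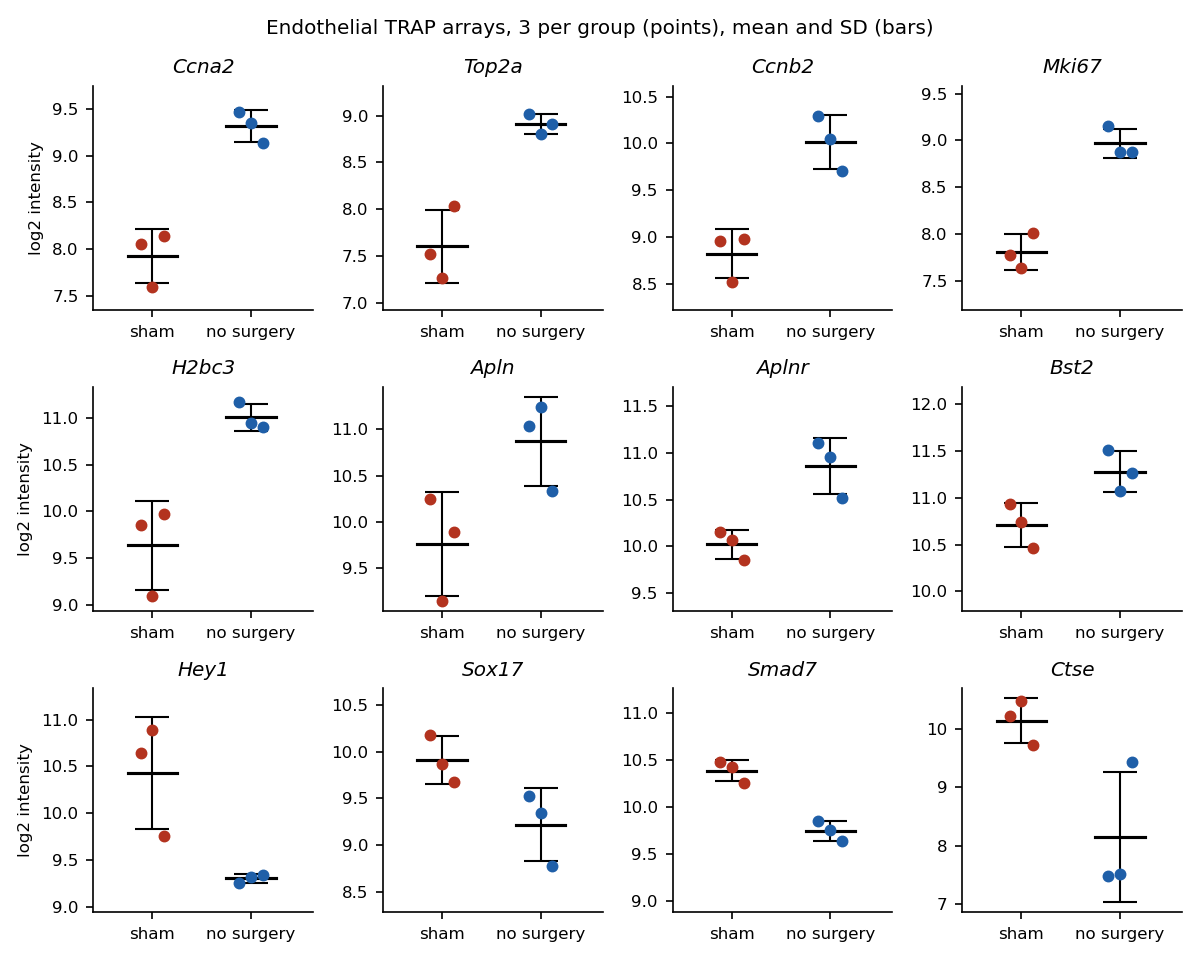
Log2 intensity (y) of 12 genes in the 3 sham arrays (red, left) and the 3 arrays without surgery (blue, right), with the group mean and SD as bars. In the genes of the top row and H2bc3, Apln, Aplnr and Bst2 every sham array lies below every array without surgery, and in Hey1, Sox17, Smad7 and Ctse every sham array lies above.

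Apelin and its receptor both fell. Apln encodes a peptide ligand of endothelial tip cells, and Aplnr its G protein-coupled receptor on veins and growing vessels. Apln read 10.25, 9.14 and 9.89 log2 units in sham arrays, against 11.04, 11.24 and 10.33 in arrays without surgery. The lowest no-surgery array was close to the highest sham array, and the log2 fold change was -1.11 ± 0.23 (adjusted p = 0.00725). Aplnr read 10.15, 10.07 and 9.85 in sham arrays, against 11.10, 10.95 and 10.52 in arrays without surgery (log2 fold change -0.84 ± 0.18, adjusted p = 0.0148). Both calls were lost without sham replicate 2 (adjusted p = 0.206 for Apln and 0.0702 for Aplnr), without no-surgery replicate 1 (0.0666 and 0.153) or without no-surgery replicate 2 (0.0931 and 0.0835), and that of Aplnr also without sham replicate 3 (0.0807). After IRI, Apln averaged 11.89 and Aplnr 8.14. No other gene among 25 of VEGF, angiopoietin and tip cell signalling was called: Kdr had a log2 fold change of 0.07, Angpt2 0.01, Esm1 0.31 and Cxcr4 -0.74 (adjusted p = 0.415).

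Other genes that fell lie outside cell division. Lrrc55, an auxiliary subunit of calcium-activated potassium channels, read 6.59, 6.21 and 6.70 in sham arrays, against 8.26, 8.06 and 7.27 in arrays without surgery (log2 fold change -1.37 ± 0.18, adjusted p = 4.97e-05). Bank1, a scaffold protein of B cell receptor signalling, read 7.52, 7.14 and 8.32 in sham arrays, against 8.89, 9.00 and 8.65 in arrays without surgery (log2 fold change -1.19, adjusted p = 0.000148). The groups did not overlap in either gene, and both calls held whichever array was left out. Neither was called in the fit of the 6 arrays alone (adjusted p = 0.178 and 0.261 by limma) or of the 9 endothelial arrays (0.0586 and 0.135). Slco1a4, an organic anion transporter of brain endothelium, had a log2 fold change of -0.63 (adjusted p = 0.0153), and Lamc1, the laminin chain shared by most basement membranes, had -0.52 (adjusted p = 0.022). Both were less stable: the adjusted p was 0.252 for Slco1a4 and 0.186 for Lamc1 without no-surgery replicate 1. Slco1a4 was the only called gene among 20 of solute transport and tissue damage, and Lamc1 the only one among 26 of matrix and remodelling.

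Hey1, Sox17, Smad6 and Smad7 of the Notch and BMP pathways rose. Of 24 genes of endothelial Notch, BMP and Wnt signalling 4 rose and 0 fell, beside 0.255% of all genes that rose, and the median log2 fold change was 0.21. Hey1, a repressor that Notch and BMP signals induce in endothelium, read 10.64, 10.89 and 9.75 log2 units in sham arrays, against 9.25, 9.32 and 9.34 in arrays without surgery. Sham replicate 3 was nearest to the arrays without surgery, which lay close together. Hey1 was 2.19-fold higher (log2 fold change 1.13 ± 0.17, adjusted p = 0.000241), and the call held whichever array was left out, but not in the fit of the 6 arrays alone (adjusted p = 0.266). Sox17, a factor of arterial endothelium, read 10.18, 9.87 and 9.67 in sham arrays, against 9.53, 9.34 and 8.78 in arrays without surgery (log2 fold change 0.69 ± 0.13, adjusted p = 0.00213).

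The inhibitory SMAD genes changed in the same direction. Smad7 read 10.48, 10.43 and 10.26 in sham arrays, against 9.85, 9.75 and 9.64 in arrays without surgery (log2 fold change 0.64 ± 0.13, adjusted p = 0.00558). Smad6 read 9.68, 9.55 and 9.53 in sham arrays, against 9.26, 8.99 and 8.64 in arrays without surgery (log2 fold change 0.62 ± 0.15, adjusted p = 0.0281). Groups did not overlap in either gene. Smad9, which transmits BMP signals and was found among the 8 SMAD genes by symbol, rose by 0.59 on the log2 scale (adjusted p = 0.00866), while Smad1, Smad2, Smad3, Smad4 and Smad5 lay between -0.20 and 0.01. The call of Smad6 was lost without any of the arrays except no-surgery replicate 1 (adjusted p up to 0.329), and that of Smad7 without sham replicate 1 or 2 (0.0502 and 0.0521). The count of 4 on the list was 2 without either of these sham arrays, 1 with sham replicate 2 and no-surgery replicate 3 both left out, and 0 in the fit of the 6 arrays alone.

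Receptors, ligands and other targets of these pathways did not pass. Notch1 and Notch4 had log2 fold changes of 0.22 and 0.33, the ligands Dll4 and Jag1 0.02 and 0.17, and the targets Hes1 and Nrarp 0.21 and 0.02. The BMP targets Id1, Id2 and Id3 lay between 0.18 and 0.28, and the receptors Acvrl1 and Bmpr2 had 0.26 and 0.22. Of 12 arterial genes Hey1 and Sox17 rose. The connexin genes Gja5 and Gja4 had 0.42 (adjusted p = 0.272) and 0.34, and Efnb2, ephrin-B2, had 0.39. On the list of 24 genes 3 members had negative values, down to -0.08 for Ctnnb1, the beta-catenin gene.

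**Figure D3:**
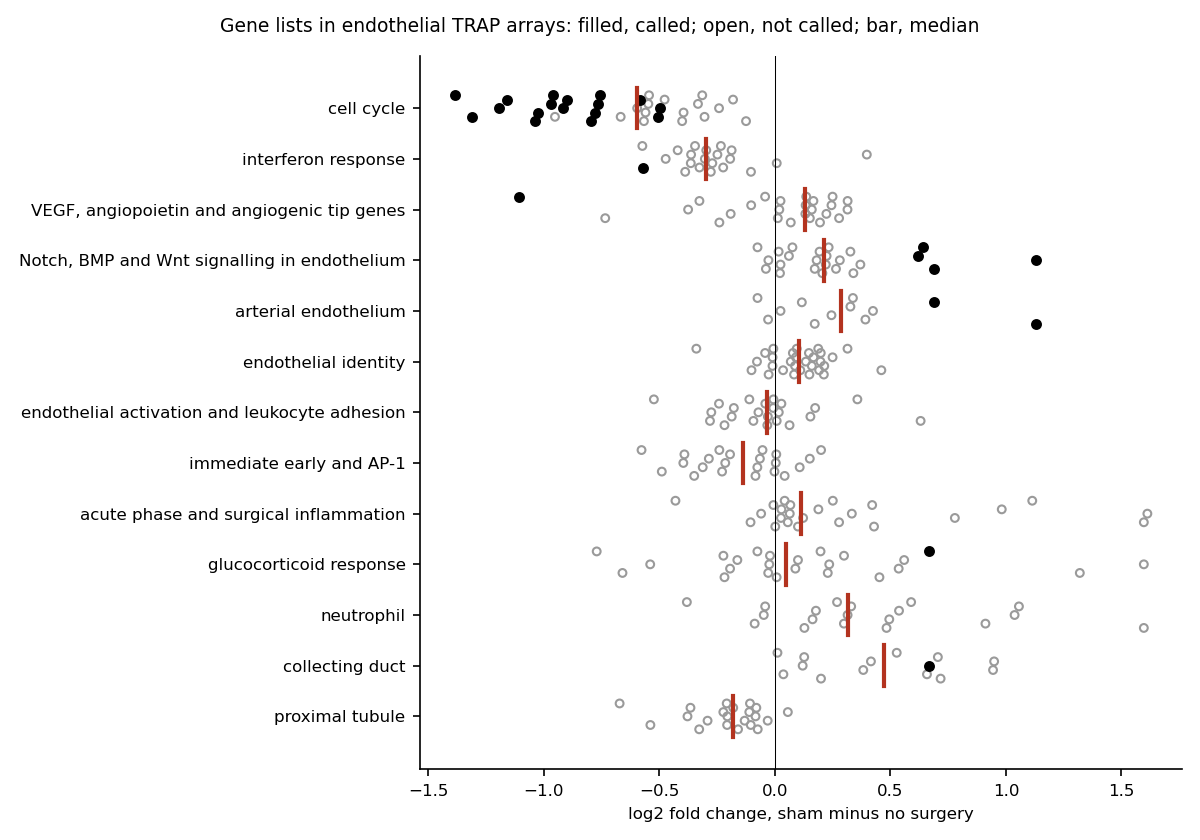
Log2 fold change of sham over no surgery (x) for the members of 13 gene lists (y), 1 point a gene; filled points were called, open points were not, and red bars mark medians. The cell cycle list holds 17 filled points below 0 and the Notch, BMP and Wnt list 4 above 0.

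Endothelial identity genes did not pass the test. Of 30 identity genes 0 were called, with 1 higher and 1 lower at an unadjusted p under 0.05 (2.82% and 2.53% of all genes). Cdh5 read 12.32, 12.31 and 12.15 log2 units in sham arrays, against 12.41, 12.22 and 12.24 in arrays without surgery. Pecam1 had a log2 fold change of 0.04, Emcn -0.01, Nos3 -0.01 and Tek 0.16. The summed identity signal was 121878, 113580 and 108283 in sham arrays, against 114590, 102583 and 101998 in arrays without surgery, so the ranges overlapped. Sox18 (0.46) and Gpihbp1, the lipase anchor of capillaries (-0.34), had the smallest p values on the list (adjusted p = 0.527 and 0.673).

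Genes of endothelial activation did not pass either. Of 23 genes of activation and leukocyte adhesion 0 were called, 1 was higher at an unadjusted p under 0.05 (Ch25h, 0.63), and the median was -0.03. Sele, the endothelial selectin that cytokines induce, read 6.85, 6.79 and 6.80 in sham arrays, against 6.99, 6.65 and 6.89 in arrays without surgery. Icam1 and Vcam1, ligands of leukocyte integrins, had log2 fold changes of 0.15 ± 0.17 and 0.06 ± 0.35. After IRI the means were 9.06 for Sele, 11.62 for Icam1 and 11.26 for Vcam1. Of the flow-responsive factors, Klf2 had -0.20 and Klf4 0.33, and the vasoconstrictor gene Edn1 had 0.59 (adjusted p = 0.942). Nos2, the inducible nitric oxide synthase, fell by 0.59 on the log2 scale (adjusted p = 0.00681; named after its values were seen).

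Stress lists gave few calls. Of 22 immediate early genes 0 were called and 2 were lower at an unadjusted p under 0.05, Fosl2 at -0.39 and Egr1 at -0.49. Heat shock genes, unfolded protein and ATF4 genes, NRF2 targets and p53 targets had 0 calls among 14, 21, 11 and 13 genes, and 1 p53 target was lower at an unadjusted p under 0.05. Of 24 glucocorticoid response genes 1 rose: Mt2, a metallothionein, read 11.24, 11.41 and 10.98 in sham arrays, against 10.89, 10.53 and 10.22 in arrays without surgery (log2 fold change 0.67, adjusted p = 0.0237, and 0.301 without sham replicate 2). Fkbp5, a standard target of the glucocorticoid receptor, split within both groups, at 11.03, 10.52 and 9.19 in sham arrays, against 9.01, 9.12 and 10.94 in arrays without surgery. Other targets of that receptor did not pass: Tsc22d3 had -0.22 and Sgk1 0.23. Of the 24 genes 6 were higher and 2 lower at an unadjusted p under 0.05 (2.82% and 2.53% of all genes). The arrays did not overlap in 6 on the higher side (7.93% of all genes) and in 2 on the lower side (6.83%). The list median was 0.048, and 11 members were negative.

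Interferon genes lay low as a list, with 1 call. Bst2, tetherin, which holds budding virus at the cell surface, read 10.93, 10.74 and 10.46 in sham arrays, against 11.51, 11.07 and 11.26 in arrays without surgery (log2 fold change -0.57 ± 0.12, adjusted p = 0.00681, and 0.122 without no-surgery replicate 1 or 0.0807 without sham replicate 3). The other 20 of the 21 genes did not pass. The median of the list was -0.30, 19 members were negative, 6 were lower at an unadjusted p under 0.05 (2.53% of all genes), and in 12 the arrays did not overlap on the lower side (6.83% of all genes). Mx2 and Ifit2 had -0.33 and -0.42 (adjusted p = 0.196 and 0.559).

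Several acute phase and neutrophil messages were higher in sham arrays without passing. Lcn2, lipocalin-2, read 10.38, 10.55 and 9.51 in sham arrays, against 8.82, 8.22 and 8.60 in arrays without surgery; the groups did not overlap, and the log2 fold change was 1.60 ± 0.48 (adjusted p = 0.171). Serpina3n, a protease inhibitor of the acute phase, had 1.61 ± 0.52 (adjusted p = 0.255), and S100a8, a calcium-binding protein of neutrophils, 1.06 ± 0.33 (adjusted p = 0.226). Of 24 acute phase genes 0 were called and 4 were higher at an unadjusted p under 0.05, beside 2.82% of all genes. Of 19 neutrophil genes 0 were called and 9 were higher at that level (2.82% of all genes). Lcn2 is on both lists. Of the neutrophil genes 8 lay above the wild-type pull-down. The sham arrays lay wholly above the others in 7 neutrophil and 8 acute phase genes (7.93% of all genes), and wholly below in 0 and 1. The summed neutrophil signal was 5718, 4551 and 3105 in sham arrays, against 2876, 1821 and 3081 in arrays without surgery. The lowest sham array was barely above the highest array without surgery.

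**Figure D4:**
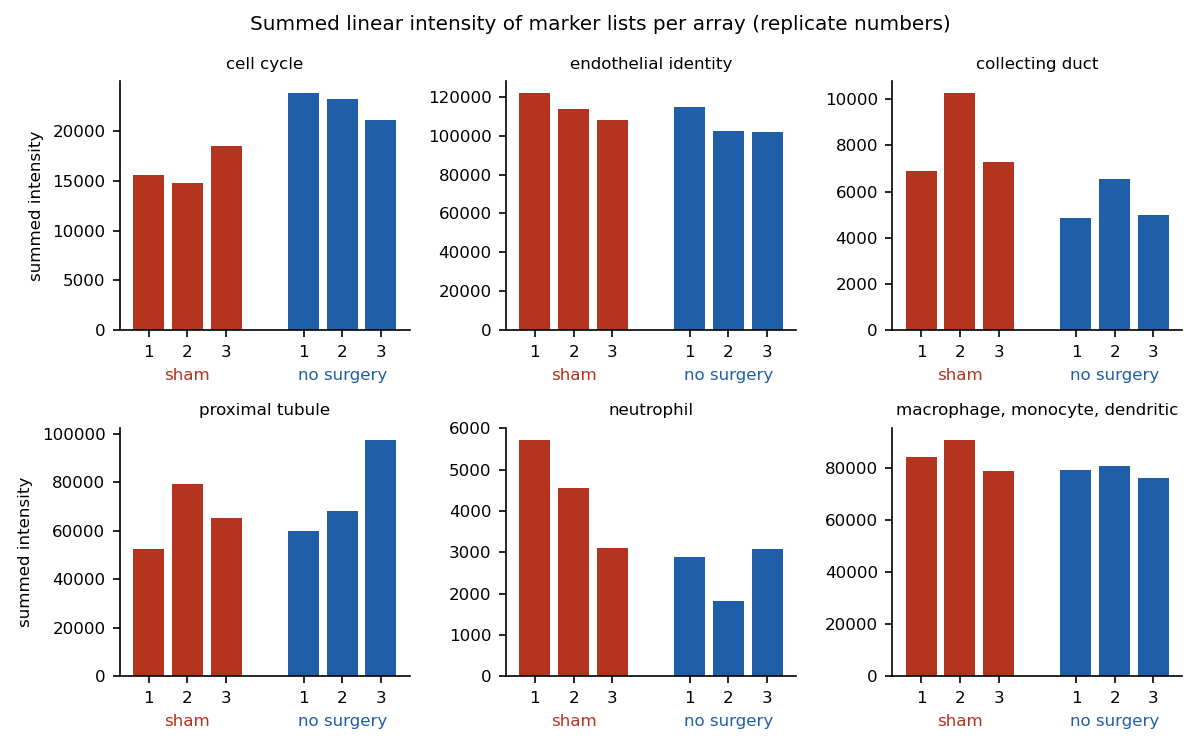
Summed linear intensity (y) of 6 gene lists in each sham array (red, left) and each array without surgery (blue, right), by replicate number. The cell cycle sums of the 3 sham arrays lie below and the collecting duct sums above those of the 3 arrays without surgery. Neutrophil sums of the sham arrays also lie above, the lowest only barely. The endothelial identity, proximal tubule and macrophage sums overlap.

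Several genes that rose are better known from leukocytes. Klrb1b, a lectin-like receptor of natural killer cells, read 8.74, 8.62 and 8.84 in sham arrays, against 7.75, 7.68 and 7.63 in arrays without surgery (log2 fold change 1.05 ± 0.13, adjusted p = 1.72e-05). Its neighbour in the family, Klrb1c, had 0.33 (adjusted p = 0.0394), and 2 of 18 Klr genes rose in all. Klrb1c was the only call among 17 lymphocyte and natural killer genes (0.255% of all genes rose). Of these 17 genes 11 had negative values, and the median was -0.098. Cd84, an adhesion receptor of the SLAM family, had 0.89 (adjusted p = 0.00585), and Ctse, the aspartic protease cathepsin E of gastric and immune cells, 1.99 ± 0.49 (adjusted p = 0.0394). Ctse read 10.22, 10.47 and 9.72 in sham arrays, against 7.48, 7.52 and 9.42 in arrays without surgery, so that no-surgery replicate 3 was close to the sham arrays. The calls of Cd84, Ctse and Klrb1c were each lost without at least 2 of the 6 arrays, with adjusted p up to 0.15, 0.32 and 0.494. Of the 26 macrophage, monocyte and dendritic cell markers 0 were called and 4 were higher at an unadjusted p under 0.05. Their summed signal was 84516, 90933 and 78989 in sham arrays, against 79281, 80978 and 76283 in arrays without surgery. The part of leukocytes in these changes was not tested.

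Elf5, Defb1 and Plet1, genes known from kidney or other epithelia, were among those that rose. Elf5, a transcription factor of collecting duct principal cells, read 7.25, 7.94 and 7.54 in sham arrays, against 6.88, 7.17 and 6.67 in arrays without surgery (log2 fold change 0.67 ± 0.14, adjusted p = 0.00669). Defb1, a defensin of tubular epithelium, had 0.89 (adjusted p = 0.00545), and Plet1, a surface protein of epithelia, 0.86 (adjusted p = 0.0313). All 3 calls were lost without sham replicate 2, at adjusted p of 0.19, 0.0901 and 0.562. Of 14 collecting duct markers Elf5 alone was called, 8 were higher at an unadjusted p under 0.05, and the median was 0.47. In 6 of the 14 the sham arrays lay wholly above the others (7.93% of all genes did), and 2 of the 14 lay above the wild-type pull-down. The water channel gene Aqp2 read 10.25, 11.16 and 10.55 in sham arrays, against 9.66, 10.25 and 9.20 in arrays without surgery (adjusted p = 0.107). The summed collecting duct signal was 6893, 10257 and 7288 in sham arrays, against 4868, 6526 and 4969 in arrays without surgery. In pull-downs from kidneys with the L10a allele and no Cre, which the labels describe as signal of podocytes and some collecting duct cells, it was 41976 and 42281 after sham surgery. Of the 49 genes that rose, 13 were higher in those pull-downs than in the endothelial arrays, with log2 differences, endothelial minus L10a, of -3.73 for Elf5 and -3.04 for Plet1. The same share over all genes was not counted, so these 13 are not shown to be an excess. Of 21 proximal tubule markers 0 were called, 20 had negative values and the median was -0.18. Proximal tubule sums were 52359, 79281 and 65207 in sham arrays, against 59966, 68067 and 97495 in arrays without surgery. The part of leaky tag expression in these changes was not tested.

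The remaining genes with the largest increases are of varied kinds. Eps8l1, an actin regulator related to the EGF receptor substrate EPS8, read 8.50, 7.54 and 8.30 in sham arrays, against 6.67, 6.78 and 6.65 in arrays without surgery (log2 fold change 1.41 ± 0.20, adjusted p = 7.64e-05). Calr3, a calreticulin of the testis, read 7.31, 7.32 and 6.96 in sham arrays, against 6.25, 6.22 and 6.27 in arrays without surgery (log2 fold change 0.95 ± 0.10, adjusted p = 6.22e-07). The groups did not overlap in either gene. Ptpru, a receptor tyrosine phosphatase, Timp4, an inhibitor of metalloproteinases, Cdk14, a kinase of Wnt signalling, and Zfp599, a zinc finger gene, had log2 fold changes of 1.00, 0.96, 0.90 and 0.97. The call of Ptpru was lost without sham replicate 1, sham replicate 2 or no-surgery replicate 1 (adjusted p = 0.102, 0.155 and 0.0946), and those of Eps8l1, Calr3, Timp4, Cdk14 and Zfp599 held in each such fit. In the fit of the 6 arrays alone Eps8l1, Timp4 and Ptpru were not called (adjusted p = 0.132, 0.345 and 0.157 by limma). Eps8l1 lay at -0.21 log2 units against the wild-type pull-down, and Calr3 at 0.36.

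The same comparison in the other lines places the cell cycle genes. The lines share no arrays, and their sham mice differ in age from those without surgery only in the nephron line (8 weeks and 6 weeks). Both groups were aged 6 weeks in the interstitial line and 7 weeks in the myeloid line. Of the 33 cell cycle genes 17 fell in endothelial arrays, 7 in nephron, 6 in interstitial and 4 in myeloid arrays, beside 0.483%, 0.904%, 4.91% and 1.27% of all genes. Of the 33, 1 rose, in interstitial arrays. Over all genes 1.62% were called in nephron (0.712% higher), 10.3% in interstitial (5.4% higher) and 1.68% in myeloid arrays (0.411% higher). The median log2 fold changes were -0.60, -0.29, -0.27 and -0.30, in the same order. Ccna2 had -1.39 in endothelial, -1.53 in nephron, -0.99 in interstitial and -0.63 in myeloid arrays. When the endothelial effect was tested against the mean of the other 3 lines, 1 of the 33 genes was called, Bub1b, which had -0.76 in endothelial arrays and -0.07, -0.23 and -0.10 in nephron, interstitial and myeloid arrays. That difference was lost without sham replicate 1 or 2 or without no-surgery replicate 1 (adjusted p = 0.0899, 0.106 and 0.132). Of the 33 differences 32 were negative, with a median of -0.40, and 21 were lower at an unadjusted p under 0.05, as were 661 of all 19244 genes. Apart from Bub1b, no single gene of the list passed the adjusted test of the difference. Outside the list, the condensin gene Ncapg was called lower in the difference, at -0.50 (adjusted p = 0.0153 by limma). Cdca5 and Brip1 were too, at -0.60 and -0.46 (adjusted p = 0.0308 and 0.0356). These 3 genes were named after their values were seen. The 6 Mcm2 to Mcm7 genes were all negative in endothelial arrays (median -0.55), and their medians were 0.04, 0.29 and 0.35 in nephron, interstitial and myeloid arrays, with 0 of 6 called in the difference and 5 lower at an unadjusted p under 0.05.

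**Figure D5:**
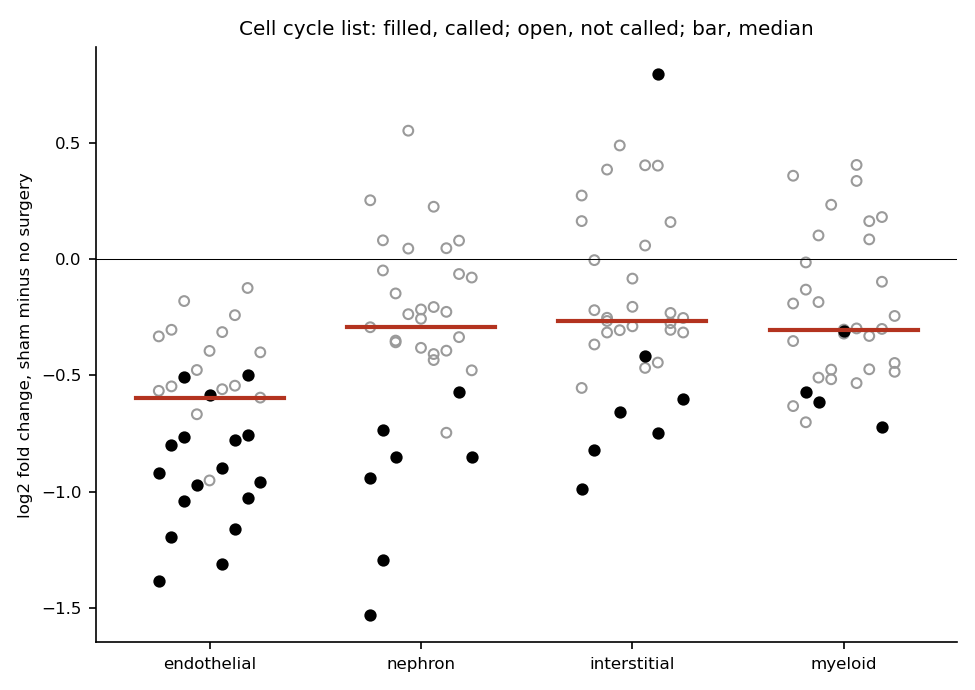
Log2 fold change of sham over no surgery (y) for the 33 cell cycle genes in the endothelial, nephron, interstitial and myeloid TRAP arrays (x), 3 arrays a group; filled points were called, open points were not, and red bars mark medians. All endothelial points lie below 0, and in the other 3 lines points lie on both sides.

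Few genes differed between the endothelial line and the others. The difference was called for 27 genes (0.14%), 16 higher (0.0831%) and 11 lower (0.0572%). Hey1 was among the higher ones: its log2 fold change was 1.13 in endothelial arrays and -0.11, -0.23 and 0.37 in nephron, interstitial and myeloid arrays (difference 1.12 ± 0.20, adjusted p = 0.00829, and 0.0695 or 0.105 without sham replicate 1 or 2). Smad6 and Smad7 were also called, with differences of 0.83 and 0.74 (adjusted p = 0.026 and 0.0231), as was Smad9 at 0.69 (adjusted p = 0.0308). Against the L10a pull-down without Cre, the endothelial arrays stood at -0.24 log2 units for Smad6, 0.14 for Smad7 and -0.44 for Smad9. For Hey1 they stood at 1.20. Against the wild-type pull-down the 3 SMAD genes stood at 1.53, 1.45 and 0.53. The part of leaky tag expression in these SMAD changes was not tested. Among the lower ones Lrrc55 had -1.37 in endothelial arrays and -0.01, 0.03 and -0.05 in nephron, interstitial and myeloid arrays (difference -1.35 ± 0.21, adjusted p = 0.00219). The count of 27 was 12 without sham replicate 1 and 10 without sham replicate 2, 64 without sham replicate 3, and 3 with both outlying arrays left out. Against the interstitial and myeloid lines alone it was 9.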

How the data were processed

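Per the submitters' processing notes, the Affymetrix Mouse Gene 1.0 ST arrays went through RMA (Affymetrix Expression Console, version 1.3.1), and the authors deposited linear intensity values, from 7.15 to 19571, for 35556 probe sets. A log scale had been assumed, so intensities were first converted to log2. Only the 21789 probe sets with 1 gene symbol were used, and the probe set with the highest mean stood for each of 19938 genes. A gene entered the tests where 3 or more arrays exceeded 5 log2 units (19244 genes).

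limma 3.58.1 (R 4.3.3) was fitted to 45 arrays in 15 groups, which share 1 estimate of the spread (30 residual degrees of freedom), with p-values adjusted by Benjamini and Hochberg over all genes tested. Errors of fold changes are standard errors, and the number of arrays (3 per group) limits their precision. Levels above untagged pull-downs came from a fit of 57 arrays. The fit was tested on simulated data with known changes.

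Named genes were the 12 highest and 12 lowest called genes whose groups did not overlap, up to 4 called members of each of 43 lists, the 6 highest and 6 lowest called in the difference between lines, and a fixed panel; predicted genes with clone or serial names, olfactory and vomeronasal receptors and small RNAs were left out of these ranks. The members and lists were chosen with earlier results of these data known. Titles number the arrays as biological replicates and name no cultures, litters or days. The p-values therefore measure only the spread between arrays within groups, pooled over the 15 groups of the fit. Promoter letters were searched on both strands in the first RefSeq entry of each gene with 300 bases. Figures were drawn with matplotlib 3.10.9. Alternatives covered the arrays in the fit, the filter, scaling, probe sets, background, a replicate block and single arrays left out.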

Additional observations from a re-analysis of the deposited data

Results flagged for a closer look

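For 12 genes the effect of sham surgery in the endothelial line differed from the mean effect in the nephron, interstitial and myeloid lines, by a test of the difference itself (limma, adjusted over 19244 genes). These are the 6 highest and the 6 lowest of the 27 differences called, leaving out predicted genes known only by a number and small RNAs. That leaves out Gm11100, with a difference of 1.17 (adjusted p = 0.00481), and Rpph1, the RNA of ribonuclease P, with -1.29 (adjusted p = 0.0189). The values below are log2 fold changes in the endothelial line minus the mean of the others.

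The difference was above 0 for Timp4 (1.16), Eps8l1 (1.13), Hey1 (1.12), Cdk14 (1.05), Defb1 (0.93) and Calr3 (0.91). Timp4 had 0.96 in endothelial arrays and 0.11, -0.56 and -0.16 in nephron, interstitial and myeloid arrays. Cdk14 had 0.90 in endothelial arrays and -0.50, -0.20 and 0.27 in nephron, interstitial and myeloid arrays. Against the L10a pull-down without Cre, endothelial arrays stood at -2.54 for Defb1, -1.87 for Eps8l1 and -0.96 for Cdk14. For Hey1, Timp4 and Calr3 they stood at 1.20, 1.02 and 0.16. The part of leaky tag expression in these differences was not tested. The differences of Timp4, Cdk14 and Calr3 were called whichever single endothelial array was left out. Those of Hey1, Eps8l1 and Defb1 were not, with adjusted p up to 0.105, 0.174 and 0.313, the first and last without sham replicate 2 and the other without sham replicate 1.

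The difference was below 0 for Klk1b22 (-3.08), Lrrc55 (-1.35), Bank1 (-1.10), Noct (-0.77), Bub1b (-0.62) and Rps6ka5 (-0.61). Klk1b22, a kallikrein of a large family of near copies, read 5.93, 6.05 and 5.89 in endothelial sham arrays, against 8.04, 8.39 and 8.27 without surgery, but its change within that line did not pass (log2 fold change -2.28, adjusted p = 0.056). It had 2.57, -1.15 and 0.98 in nephron, interstitial and myeloid arrays, and its difference was lost in each of the 6 fits without 1 array (adjusted p up to 0.161). Noct, a deadenylase-like gene of the circadian clock, had -0.29 in endothelial arrays (adjusted p = 0.862) and 1.05, 0.20 and 0.20 in nephron, interstitial and myeloid arrays. Its nephron change passed (adjusted p = 1.36e-05), in the line whose sham mice were older than those without surgery. Rps6ka5 did not pass within the endothelial line either (-0.32, adjusted p = 0.434). Against the L10a pull-down without Cre, endothelial arrays stood at -2.41 for Klk1b22 and -0.78 for Noct. For Lrrc55, Bank1, Bub1b and Rps6ka5 they stood at 1.40, 2.895, 1.40 and 0.72. The part of leaky tag expression in these negative differences was not tested. The difference of Lrrc55 was called whichever array was left out. Those of Bank1, Noct, Bub1b and Rps6ka5 were not, with adjusted p up to 0.113, 0.138, 0.132 and 0.339, without sham replicate 2 or, for Bub1b, without no-surgery replicate 1.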

How the results depend on the processing

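Against 142 calls (49 higher, 93 lower), the 6 arrays alone gave 20 (5 and 15) and the 9 endothelial arrays 86 (24 and 62). Single arrays left out gave 55 to 177 calls, with 18 to 79 higher and 37 to 98 lower; the lowest counts were without sham replicate 2 and the highest without sham replicate 3. With sham replicate 2 and no-surgery replicate 3 both left out, an alternative chosen after seeing the data, 55 genes were called (15 and 40). Among genes above the untagged background 61 were lower and 60 higher. The 27 genes called in the difference between lines became 10 to 64 with single arrays left out, 3 without both arrays, and 9 against the interstitial and myeloid lines only. The cause of these shifts was not tested, beyond the smaller number of arrays or genes in these fits. Counts under the remaining settings (39 TRAP arrays, an intensity trend, other filters, quantile normalization, mean of probe sets) stayed within 1.5 times of the main count, at 131 to 185 calls in all. No called value of a named gene changed sign in any setting run; among uncalled genes Cdh5, Pecam1, Emcn, Nos3, Sele, Vcam1 and Angpt2, all near 0, did so in at least 1.

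Of the 35 named genes called, 18 kept their call without sham replicate 2 and 23 without no-surgery replicate 1, and 7 kept it in the fit of the 6 arrays alone. The cell cycle list had 12 to 16 calls with single arrays left out. Of the samples with the same replicate number, those numbered 1 deviated together (correlation 0.512) and those numbered 2 and 3 did not (-0.389 and -0.091), so the numbers were not taken to pair the samples. With the replicate block, 144 genes were called (55 higher, 89 lower) and 27 in the difference. With 3 arrays a group, changes that miss the threshold are not shown to be absent.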

Other observations

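Vessel segments outside the arterial list had few calls. Of 10 venous and vasa recta genes 1 fell (Aplnr), and of 10 glomerular endothelial genes 1 rose (Smad6). All 6 lymphatic genes had positive log2 fold changes with a median of 0.33 and 0 were called; 1 was higher at an unadjusted p under 0.05. Lyve1, the hyaluronan receptor of lymphatic vessels, had 0.91 (adjusted p = 0.743 by limma). These lists are short, and their values describe the 6 arrays only.

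Ribosomal protein and oxidative phosphorylation genes stayed near the middle of all genes, and counts for other lists follow. Of 20 cytosolic ribosomal protein genes and 26 oxidative phosphorylation genes 0 were called and 0 had an unadjusted p under 0.05, with medians of 0.025 and 0.032. Of 21 hypoxia and glycolysis genes 0 were called and 2 were higher at that level. Of 16 circadian clock genes 0 were called, 1 was higher and 2 were lower. Of 29 cytokine, chemokine and NF-kB genes 0 were called, 4 were higher and 3 were lower. Over all genes 2.82% were higher and 2.53% lower at that level. Of 285 small RNA genes measured 0 were called.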
